A study of Arabidopsis thaliana with 24 samples.

Results

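The levels of 10 genes of cuticular wax synthesis were followed in Arabidopsis thaliana seedlings grown with and without abscisic acid (ABA), in darkness and in light. The 10 genes were taken by gene identifier from a count table of 32833 genes, and all 10 were among the 20828 genes that passed the filter on low counts and were tested. They are CER1, CER3, CER4, WSD1, FAR1, KCS1, KCS2, KCS6, MAH1 and MYB96. MAH1 passed that filter only through 1 of the 8 groups, so its difference in that group had to arise. That difference is given as a description, with no p, and MAH1 is included in the counts and medians below.

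The plants were of the Columbia-0 ecotype, either wild type (WT) or the pifq mutant, which lacks the PIF1, PIF3, PIF4 and PIF5 phytochrome interacting factors. Each genotype was sampled in 4 conditions, with 3 biological replicates per group and 24 libraries in all. Dark-grown seedlings had a 2 h light pulse after 2 days of cold, and 62 h later were moved to ethanol (mock) or ABA plates for 4 days in darkness. Light-grown seedlings were moved after 72 h and kept on mock or ABA for 5 days in low white light, 16 h of light and 8 h of darkness per day. Light and dark groups therefore differ in age and in days on ABA as well as in light, and these cannot be told apart. All seedlings shared Murashige and Skoog medium with sucrose at 22 °C, the labels do not give the ABA concentration or the pifq alleles, and whole seedlings were sampled. In such bulk RNA, fewer cells of a type and less RNA per cell cannot be told apart.

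Cuticular wax is a mixture of very-long-chain alkanes, alcohols, esters and related compounds that epidermal cells deposit on the shoot surface, where it limits water loss. Ketoacyl-CoA synthases such as KCS1, KCS2 and KCS6 lengthen the acyl chains. CER1 and CER3 turn the long acyl chains into alkanes, and MAH1, a cytochrome P450, oxidises alkanes to secondary alcohols and ketones. CER4 reduces acyl chains to primary alcohols, and WSD1 joins alcohols and acids into wax esters. FAR1 is a related reductase known for the alcohols of suberin, a root barrier polymer, and KCS2 is known for suberin as well as for wax. MYB96 is a transcription factor known to activate wax genes in drought and under ABA. ABA is the hormone of water deficit, and PIFs are transcription factors that act mainly in darkness and are degraded in light.

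In the RefSeq annotation of TAIR10.1 the elongase genes are KCS1 (AT1G01120) at chr1:57164-59215 on the minus strand, in 1 exon block, KCS2 (AT1G04220) at chr1:1119699-1122786 on the minus strand, in 2 exon blocks, and KCS6 (AT1G68530) at chr1:25712414-25715024 on the minus strand, in 1 exon block. The alkane genes are CER1 (AT1G02205) at chr1:418416-422579 on the plus strand, in 7 exon blocks, CER3 (AT5G57800) at chr5:23420184-23424117 on the plus strand, in 11 exon blocks, and MAH1 (AT1G57750) at chr1:21383812-21385709 on the minus strand, in 1 exon block. The genes of alcohols and esters are CER4 (AT4G33790) at chr4:16204096-16207956 on the minus strand, in 10 exon blocks, FAR1 (AT5G22500) at chr5:7470328-7474133 on the plus strand, in 9 exon blocks, and WSD1 (AT5G37300) at chr5:14767426-14770396 on the plus strand, in 5 exon blocks. The regulator is MYB96 (AT5G62470) at chr5:25078991-25081141 on the minus strand, in 3 exon blocks.

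The 250 bases before the annotated start of each gene were read from the RefSeq genome of build TAIR10.1. They were searched on both strands for ACGTG, the core of the ABA-responsive element. They were also searched for a pair of motifs known to be bound by PIFs, the G-box, which is CACGTG, and the E-box variant that reads CATGTG. Every G-box also holds the ABA-responsive core. ACGTG was found in 22.9% of 27443 protein-coding promoters of the same length, the G-box in 6.49% and the E-box variant in 11.1%. Among the 10 genes, ACGTG stood once before CER1 (44 to 40 bases before the start), once before CER4 (183 to 179) and once before FAR1 (81 to 77). KCS6 had 4 copies, the outermost 219 bases before the start. No G-box was found before any of the 10 genes, and the E-box variant stood once, before MAH1 (193 to 188 bases). Before CER3, KCS1, KCS2, MYB96 and WSD1 none of these letters was found in the window. The sequences of 4 genes are shown because their levels differed widely between groups (CER1, WSD1 and MAH1) or because they held the most copies (KCS6). They lie at chr1:418166-418415, plus strand (CER1), chr1:25715025-25715274, minus strand (KCS6), chr5:14767176-14767425, plus strand (WSD1) and chr1:21385710-21385959, minus strand (MAH1). Each is written 5′ to 3′ on the strand of the gene, with the motifs in capitals.
CER1: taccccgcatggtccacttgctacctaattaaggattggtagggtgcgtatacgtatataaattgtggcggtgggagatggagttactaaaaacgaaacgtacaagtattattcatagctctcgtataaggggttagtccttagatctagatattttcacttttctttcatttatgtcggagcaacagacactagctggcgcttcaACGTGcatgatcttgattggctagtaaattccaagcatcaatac
KCS6: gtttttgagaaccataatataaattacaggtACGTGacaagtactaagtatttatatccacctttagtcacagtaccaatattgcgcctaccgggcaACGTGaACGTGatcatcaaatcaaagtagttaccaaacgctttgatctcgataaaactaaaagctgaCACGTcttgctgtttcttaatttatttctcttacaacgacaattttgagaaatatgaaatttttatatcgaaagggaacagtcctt
WSD1: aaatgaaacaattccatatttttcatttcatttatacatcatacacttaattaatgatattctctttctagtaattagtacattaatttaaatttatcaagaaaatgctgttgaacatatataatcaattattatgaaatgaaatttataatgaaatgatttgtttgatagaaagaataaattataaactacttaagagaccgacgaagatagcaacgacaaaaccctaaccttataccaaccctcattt
MAH1: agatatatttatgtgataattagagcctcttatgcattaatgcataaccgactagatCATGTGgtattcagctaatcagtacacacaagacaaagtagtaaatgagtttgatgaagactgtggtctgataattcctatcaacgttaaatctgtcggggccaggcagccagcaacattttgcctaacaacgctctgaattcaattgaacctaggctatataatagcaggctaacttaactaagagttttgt
A match is a description of the letters and not evidence of a bound site.

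The libraries held between 13722850 and 17538529 counts, and levels are given as CPM, counts scaled to a common library size, with TMM factors that even out differences in library composition. One count was worth at most 0.0729 CPM. Changes are log2 ratios ± SE from edgeR's quasi-likelihood fit over all 24 libraries, and a gene is called where the Benjamini-Hochberg adjusted p over all 20828 genes is under 0.05. The ABA marker RAB18, a dehydrin gene, stood at 1261 to 1809 CPM in the ABA libraries and at 6.83 to 52.5 CPM in the mock libraries. PIF3 was lower in pifq than in WT in each condition (2.26 ± 0.751 against 61.6 ± 8.34 CPM in dark mock, SD, n = 3), and so was PIF5 (17.6 ± 4.30 against 37.3 ± 3.04 CPM). PIF1 transcript was not lower in pifq (91.2 ± 7.19 against 37.6 ± 0.683 CPM in dark mock), and PIF4 was higher in dark pifq and lower in light pifq than in WT. Reads from a mutated gene can remain where the lesion leaves a transcript, so these 2 genes do not check the labels. Epidermal markers were present in every group, at a summed level of 492 to 845 CPM over 5 genes, none of them at 0.

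**Figure D1:**
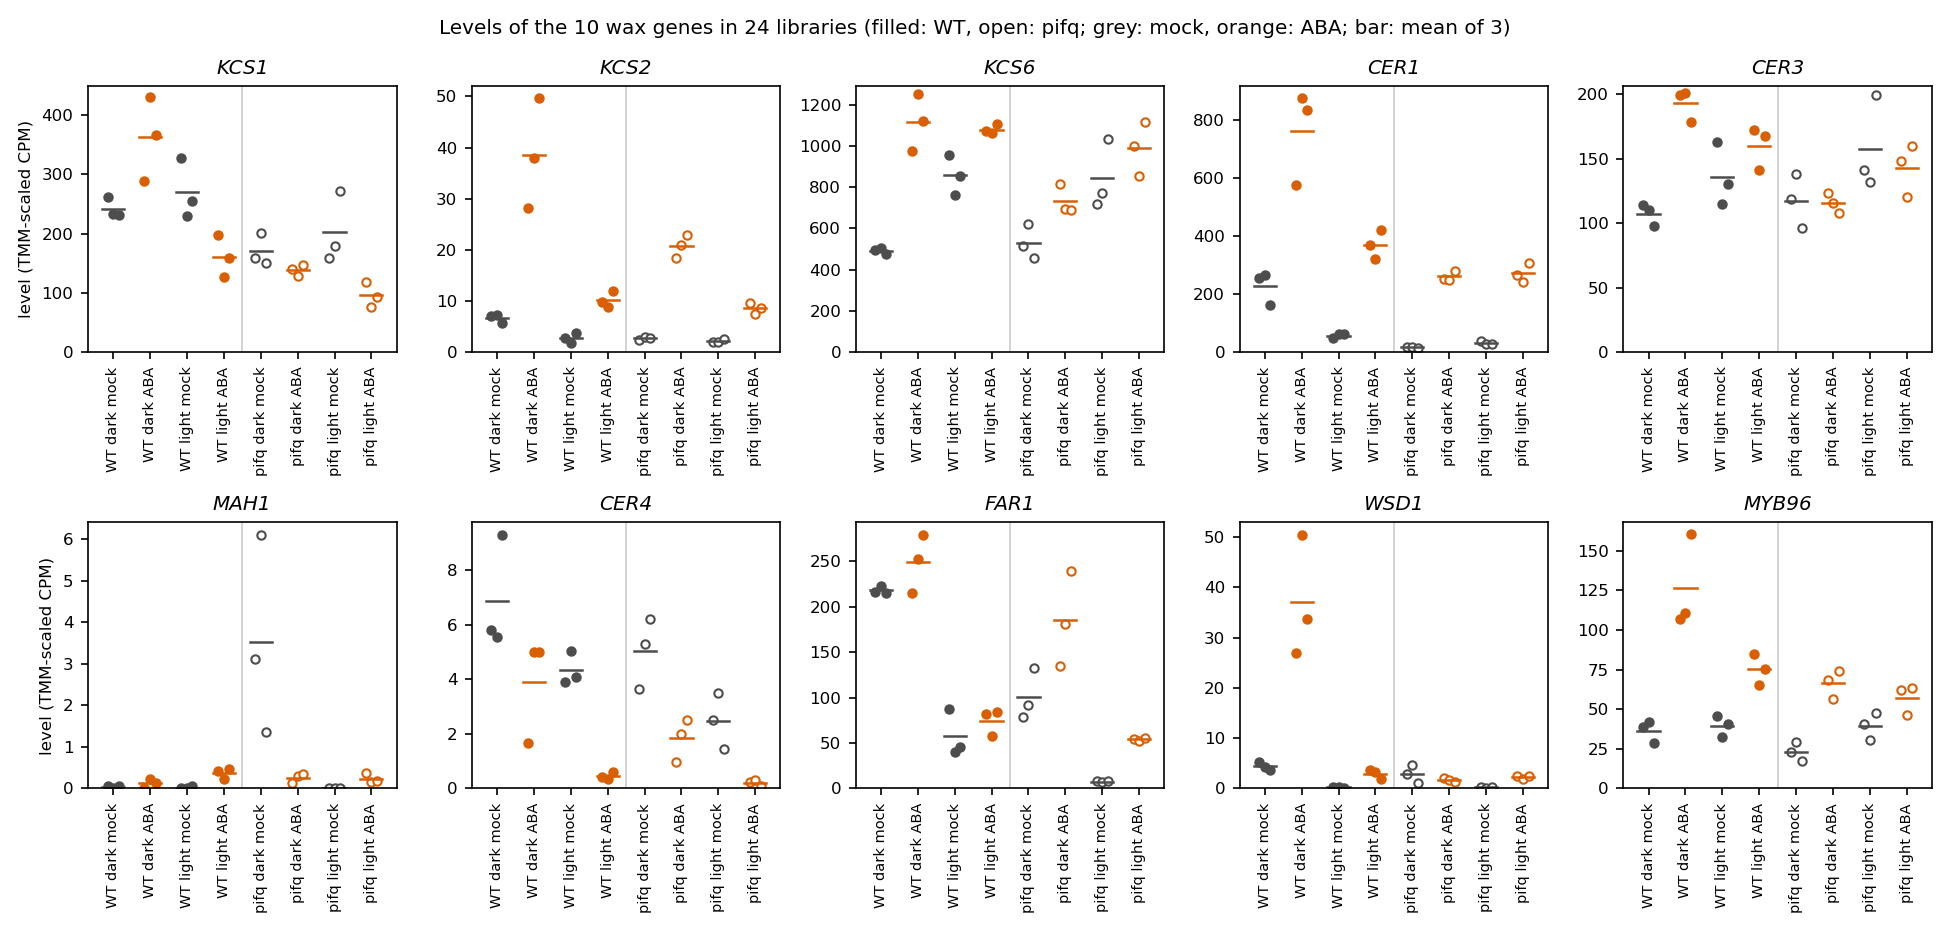
Level of each of the 10 genes in every library, in TMM-scaled CPM on linear axes that start at 0 and differ between panels. Each point is 1 library and each bar the mean of 3. CER1, WSD1 and KCS2 peak in WT dark ABA, FAR1 is highest in the WT dark groups, and MAH1 is above 1 CPM in pifq dark mock alone.

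The 10 genes span a wide range of levels. Per kilobase of exon, the WT dark mock level was highest for KCS6, at 188 ± 5.34 CPM per kb (SD, n = 3), followed by KCS1 (118 ± 8.29), FAR1 (96.2 ± 1.95), CER1 (63.3 ± 15.9), CER3 (41.4 ± 3.34) and MYB96 (20.4 ± 3.87). CER4 (3.52 ± 1.07), KCS2 (3.27 ± 0.410) and WSD1 (2.12 ± 0.429 CPM per kb) were far lower, and MAH1 was at 0.0186 ± 0.0162 CPM per kb. With ABA in WT darkness CER1, at 212 ± 44.8 CPM per kb, was second to KCS6, at 428 ± 52.8 CPM per kb. The ratio of the highest to the lowest group mean of each gene, in CPM, was 185 for WSD1, 44.0 for CER1, 32.8 for both CER4 and FAR1, 18.1 for KCS2, 5.44 for MYB96, 3.78 for KCS1, 2.27 for KCS6 and 1.80 for CER3. MAH1 had a group at 0 counts and is given no ratio.

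With ABA, the alkane gene CER1, the elongase gene KCS2 and the regulator MYB96 rose in all 4 backgrounds, and CER4 fell in 3 of them. In WT darkness 7 of the 10 genes rose and none fell, where 22.8% of all genes tested rose and 17.5% fell. In WT light 5 rose and 2 fell (21% and 19% of all genes), in pifq darkness 5 rose and 2 fell (26% and 22.7%), and in pifq light 6 rose and 2 fell (23.7% and 23%). MAH1 is 1 of the 2 that fell in pifq darkness, by way of the group through which it passed the filter. In WT darkness 4 of 5 epidermal marker genes also rose and none fell, their summed level running from 567 to 585 CPM in mock and from 632 to 845 CPM with ABA, and their part in the rises was not tested. In the other 3 backgrounds none of the 5 rose, and 2 fell in WT light, 2 in pifq darkness and 1 in pifq light. The median log2 change of the 10 genes was 1.38, 0.64, 0.22 and 1.27 in these comparisons, against medians between -0.01 and 0.07 over all genes tested. These medians include MAH1, which had few counts. With MAH1 left out, the middle value was 1.19 (KCS6), 0.37 (FAR1), 0.47 (KCS6) and 0.54 (MYB96). Scaling by library totals alone moved the median of all genes by -0.14, -0.13, -0.14 and -0.17 in these 4 comparisons, with 6 higher and 1 lower in WT darkness and 5 higher and 2 lower in pifq light. Under that scaling 34.9% of all calls in WT darkness were higher, against 56.6% with TMM, and 35.0%, 35.9% and 31.1% in the other 3, against 52.6%, 53.4% and 50.7%. RLE size factors also gave 6 higher and 1 lower in WT darkness and 5 higher and 2 lower in pifq light. With them 48.0%, 49.6%, 49.4% and 50.3% of all calls were higher in the 4 comparisons.

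**Figure D2:**
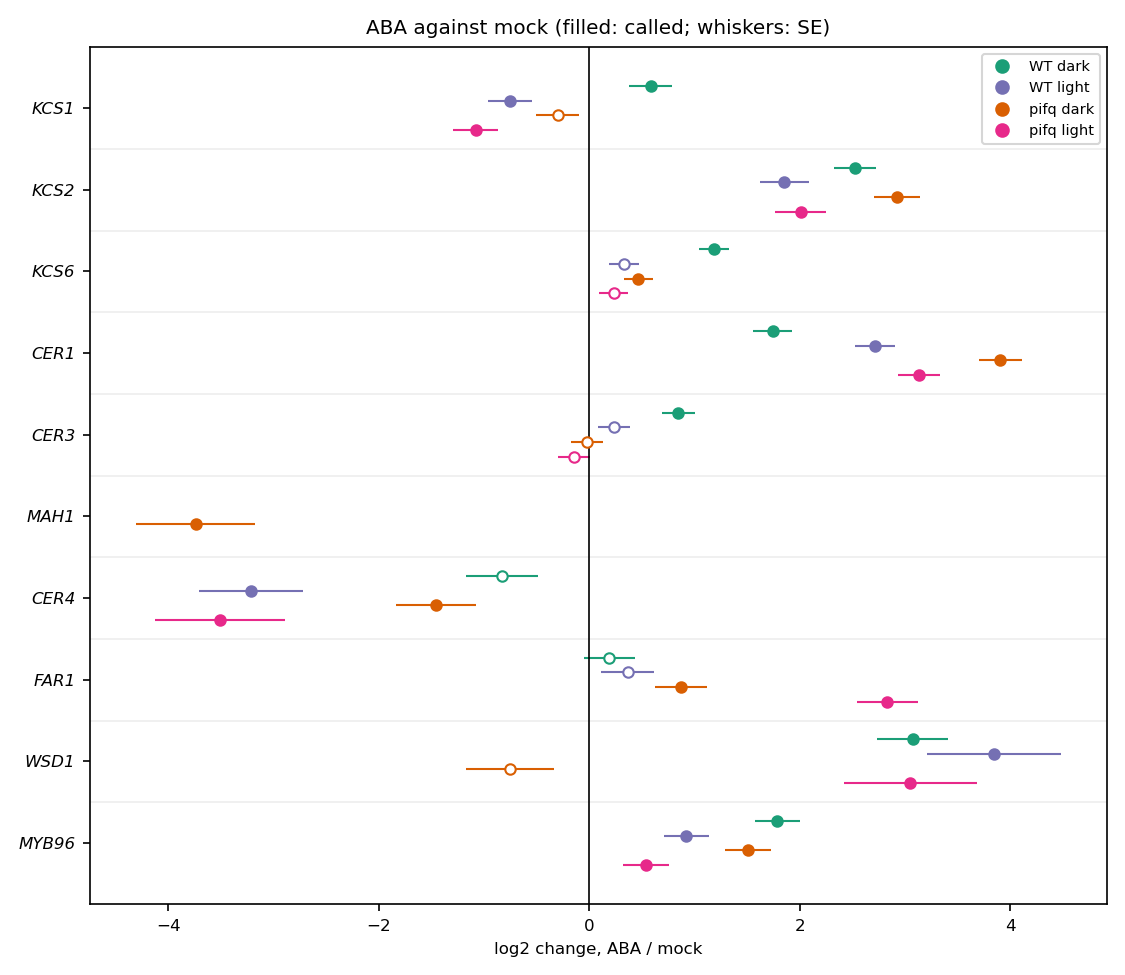
Log2 change of each gene from mock to ABA in 4 backgrounds, with SE whiskers and filled points where the change was called. CER1, KCS2 and MYB96 lie right of 0 in all 4, CER4 lies left of 0, and KCS1 lies on both sides; changes of MAH1 with 3 or fewer counts in a group are not drawn.

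Among the elongases, KCS2 rose most. Its level in WT darkness was 7.07, 7.24 and 5.71 CPM in the mock libraries and 28.1, 37.9 and 49.7 CPM with ABA, a change of 2.53 ± 0.20 (adjusted p = 1.66e-09). All 3 ABA libraries lay above all 3 mock libraries, as they did in the other backgrounds. In WT light its mean went from 2.79 ± 0.919 to 10.1 ± 1.65 CPM (1.86 ± 0.23), in pifq darkness from 2.71 ± 0.360 to 20.7 ± 2.26 CPM (2.93 ± 0.22), and in pifq light from 2.13 ± 0.427 to 8.53 ± 1.02 CPM (2.01 ± 0.24). KCS2 shares 1258 exon bases with the long noncoding gene AT1G04247 on the opposite strand, whose mean level went from 1.45 to 10.4 CPM with ABA in WT darkness and also stood higher with ABA in the other 3 backgrounds. The libraries were stranded but no source used here gives the strand setting of the counting, so reads of the 2 genes cannot be told apart.

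KCS6, the main elongase of stem wax, rose in darkness. It stood at 494, 504 and 476 CPM in WT dark mock and at 977, 1252 and 1124 CPM with ABA (1.19 ± 0.14, adjusted p = 7.67e-07), with no overlap. In pifq darkness it rose by less, from 530 ± 83.9 to 733 ± 71.9 CPM (0.47 ± 0.14, adjusted p = 0.00895), a call lost without replicate 3 of pifq dark mock (0.37, adjusted p = 0.0563). The smaller response of pifq was called as a difference (-0.72 ± 0.20, adjusted p = 0.0219), though not without replicate 2 of WT dark ABA, replicate 2 of pifq dark mock or replicate 3 of pifq dark ABA (adjusted p = 0.0556 to 0.0793). In light its changes of 0.33 ± 0.14 in WT and 0.23 ± 0.14 in pifq were not called. Without replicate 1 of WT light mock (0.42) or replicate 3 of pifq light mock (0.41 in pifq, 0.33 in WT) they were called.

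KCS1 moved in opposite directions in darkness and in light in WT. Its WT dark level was 261, 233 and 231 CPM in mock and 289, 431 and 367 CPM with ABA (0.58 ± 0.21, adjusted p = 0.0285). That call was lost without replicate 2 or 3 of either group (adjusted p = 0.0628 to 0.131) and with RLE size factors or library totals (adjusted p = 0.0566 and 0.0965). In WT light it fell from 328, 229 and 254 to 197, 126 and 158 CPM (-0.75 ± 0.21, adjusted p = 0.0064), all 3 ABA libraries lying below the mock libraries. The response differed between light and darkness by -1.34 ± 0.29 (adjusted p = 0.00453). In pifq light it fell from 203 ± 60.1 to 95.9 ± 21.0 CPM (-1.08 ± 0.21, adjusted p = 0.000283), and in pifq darkness it changed by -0.30 ± 0.21, which was not called.

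CER1 showed the steepest response among the genes of alkane formation. In WT darkness it stood at 256, 265 and 162 CPM in mock and at 577, 873 and 834 CPM with ABA (1.74 ± 0.18, adjusted p = 1.73e-07). In pifq darkness it stood at 18.6, 18.7 and 14.6 CPM in mock and at 252, 249 and 280 CPM with ABA, a larger rise on the log2 scale (3.91 ± 0.21, adjusted p = 8.05e-12). The mock level of dark pifq was the lowest of the 8 groups, and with ABA it came into the range of WT dark mock. The response of pifq exceeded that of WT by 2.16 ± 0.26 (adjusted p = 3.37e-05), while the ABA level of pifq stayed below that of WT. In light the rise was 2.72 ± 0.19 in WT (from a mean of 56.1 ± 7.67 to one of 369 ± 50.2 CPM), and in pifq it was 3.13 ± 0.20 (from 30.8 ± 5.71 to 271 ± 32.9 CPM). In order of level, pifq light ABA, pifq dark ABA and WT dark mock overlapped with their neighbours, and the other groups were set apart.

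CER3, the partner of CER1, varied little. It rose with ABA in WT darkness, from 114, 110 and 97.5 CPM to 199, 201 and 178 CPM (0.85 ± 0.16, adjusted p = 0.000166). The WT dark ABA libraries lay above those of each other group apart from replicate 3 of pifq light mock, at 199 CPM. In pifq darkness its level was 117 ± 21.0 CPM in mock and 116 ± 7.62 CPM with ABA (-0.02, 95% interval -0.34 to 0.30), and the response differed between the genotypes by -0.87 ± 0.22 (adjusted p = 0.0132). In light neither genotype's change was called (0.24 ± 0.15 in WT and -0.14 ± 0.15 in pifq).

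MAH1 was nearly silent outside 1 group. It had 58, 113 and 22 counts in the pifq dark mock libraries (3.12, 6.09 and 1.37 CPM) and between 0 and 6 counts in each of the other 21 libraries. With ABA in dark pifq it had 2, 5 and 5 counts, all below the 22 counts of the lowest mock library. In WT light it had 0, 0 and 1 counts in mock and 6, 3 and 6 with ABA, a ratio of 16.5 with a 95% counting interval of 2.53 to 693 (adjusted p = 0.0265), and the call was lost without any of 4 of these 6 libraries (adjusted p = 0.0593 to 0.0822). In pifq light it had 0 counts in mock and 9 with ABA, at least 3.604-fold higher against a floor of 3 counts over the group (adjusted p = 0.0278). That call was lost without replicate 1 of pifq light ABA or any 1 of the mock libraries (adjusted p = 0.0547 to 0.0908). In WT darkness the 6 ABA and 2 mock counts were not called as different (ratio 3.42, 95% counting interval 0.611 to 34.6).

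CER4, the alcohol-forming reductase, fell with ABA in 3 of 4 backgrounds and rose in none. In WT light it stood at 3.90, 5.02 and 4.08 CPM in mock and at 0.412, 0.365 and 0.609 CPM with ABA, 6, 5 and 8 counts, a 9.29-fold fall (-3.22 ± 0.49, adjusted p = 2.1e-05). In pifq light it fell from 2.49 ± 1.02 to 0.210 ± 0.117 CPM (-3.51 ± 0.62, adjusted p = 8.9e-05), and in pifq darkness from 5.05 ± 1.29 to 1.83 ± 0.783 CPM (-1.46 ± 0.38, adjusted p = 0.00341). In WT darkness the mock libraries stood at 5.83, 5.55 and 9.29 CPM and the ABA libraries at 1.66, 5.02 and 4.998 CPM. All 3 ABA libraries were lower, but the change of -0.83 ± 0.34 was not called (adjusted p = 0.0598). It was called with RLE size factors (adjusted p = 0.0474), with library totals (adjusted p = 0.0287) and without replicate 2 or 3 of WT dark ABA (-1.06 and -1.05) or 1 of 2 pifq libraries. The WT response in light minus that in darkness was -2.39 ± 0.62 (adjusted p = 0.0141). Beside these falls, the summed level of 6 root endodermis markers went from 379 ± 7.25 to 240 ± 61.7 CPM with ABA in WT darkness, from 166 ± 6.68 to 97.4 ± 15.4 CPM in WT light, from 227 ± 6.71 to 113 ± 17.8 CPM in pifq darkness and from 119 ± 1.95 to 85.1 ± 3.93 CPM in pifq light. The part of root tissue in the change of CER4 was not tested.

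FAR1 responded to ABA in pifq. In pifq light it stood at 8.05, 6.92 and 7.79 CPM in mock and at 54.9, 52.2 and 55.3 CPM with ABA, a 7.13-fold rise (2.83 ± 0.29, adjusted p = 2.15e-07). The groups were far apart and each was tight. In pifq darkness it rose from 78.4, 91.8 and 133 to 135, 181 and 239 CPM (0.87 ± 0.25, adjusted p = 0.00668), a call lost without replicate 3 of the ABA group (0.65, adjusted p = 0.0508). In WT the changes of 0.19 ± 0.24 in darkness (95% interval -0.32 to 0.70) and 0.37 ± 0.25 in light were not called. WT light mock held 1 library at 87.9 CPM and 2 at 40.4 and 45.4 CPM. Without the first of these, replicate 1, the WT light change was called (0.80, adjusted p = 0.00773). In light the response of pifq exceeded that of WT by 2.47 ± 0.38 (adjusted p = 0.0146), not called without replicate 2 of pifq light mock (2.41, adjusted p = 0.0639) or with the 4 compared groups alone (adjusted p = 0.0656). The summed level of the endodermis markers, given above, was lower with ABA in each background. In WT light 1 of the 5 tested was called higher and 4 lower. The part of root tissue in the changes of FAR1 was not tested. FAR1 shares 157 exon bases with AT5G22505 on the opposite strand, which had between 0 and 2 counts per group.

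WSD1, the wax ester synthase, was high in WT dark ABA alone. It stood at 27.0, 50.4 and 33.6 CPM there, against 5.33, 4.21 and 3.58 CPM in WT dark mock (3.07 ± 0.34, adjusted p = 3.2e-07). No other library of the series exceeded 5.33 CPM. In pifq darkness it stood at 2.80, 4.75 and 1.06 CPM in mock and at 2.16, 1.69 and 1.30 CPM with ABA, overlapping levels (-0.75 ± 0.42, not called, 95% interval -1.62 to 0.12). Without replicate 3 of pifq dark mock that change was called as lower (-1.13, adjusted p = 0.0151). The response of dark pifq minus that of dark WT was -3.83 ± 0.53 (adjusted p = 0.000133). In light WSD1 rose in both genotypes from at most 0.331 CPM in any library. The change was 3.85 ± 0.64 in WT (to 2.94 ± 0.933 CPM), and in pifq it was 3.05 ± 0.63 (to 2.27 ± 0.376 CPM). The same 3 pifq dark mock libraries gave 52, 88 and 17 counts of WSD1 and 58, 113 and 22 of MAH1, both highest in replicate 2 and lowest in replicate 3.

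MYB96, the regulator, rose in each background. In WT darkness it stood at 38.7, 42.2 and 28.8 CPM in mock and at 107, 111 and 161 CPM with ABA (1.79 ± 0.21, adjusted p = 1.45e-06). In pifq darkness it rose from 23.2 ± 6.07 to 66.3 ± 9.11 CPM (1.51 ± 0.22) and in WT light from 39.7 ± 6.87 to 75.2 ± 9.59 CPM (0.92 ± 0.21, adjusted p = 0.00174). In those 3 backgrounds the groups did not overlap. In pifq light the mock libraries stood at 40.4, 30.5 and 47.7 CPM and the ABA libraries at 62.3, 46.7 and 63.2 CPM. These overlapped, and the change of 0.54 ± 0.21 (adjusted p = 0.0453) was not called in 9 of the 24 fits that each left out 1 library (adjusted p = 0.0528 to 0.209), with RLE size factors (0.0517) or with library totals (0.152). The libraries whose removal ended it were replicates 1 and 3 of pifq light ABA, replicates 1 and 2 of pifq light mock, and 5 libraries outside the comparison.

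Between the genotypes, CER1 was lower in pifq than in WT in 3 of 4 conditions. In dark mock 4 of the 10 genes were lower in pifq, where 20.9% of all genes were lower and 23.5% higher, and the 1 counted as higher was MAH1, which is a description only. In dark ABA 8 were lower and none higher (17.5% and 22.2% of all genes), and in light mock 2 were lower and none higher (4.96% and 5.64%). In light ABA none was called by edgeR (0.696% of all genes lower and 0.586% higher), 2 had an unadjusted p under 0.05 by edgeR (CER1 and KCS1), and DESeq2 called 1 (KCS1). Under library totals alone, 24.2% of all calls in light ABA were higher, against 45.7% with TMM. The median log2 differences of the 10 genes were -0.55, -0.91, -0.41 and -0.42 in that order, against -0.01 to 0.05 over all genes. With MAH1 left out, the middle value was -0.59 (WSD1), -0.93 (MYB96), -0.40 (KCS2) and -0.39 (MYB96). Same-numbered replicates of WT and pifq deviated together in dark mock and in light ABA. With the replicate number as a block in a fit of the compared groups alone, dark mock gave 6 lower and 1 higher, with CER4 (-0.44, adjusted p = 0.0406) and KCS1 (-0.51, adjusted p = 0.00272) added. The block on all 24 libraries called neither of these, and CER4 was called in 1 of 31 alternatives. In light ABA the blocked fit called 5 lower in place of none, among 3924 genes in all in place of 267. Such a fit of the compared groups alone has few residual degrees of freedom. With the block on all 24 libraries none of the 10 genes was called in light ABA.

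**Figure D3:**
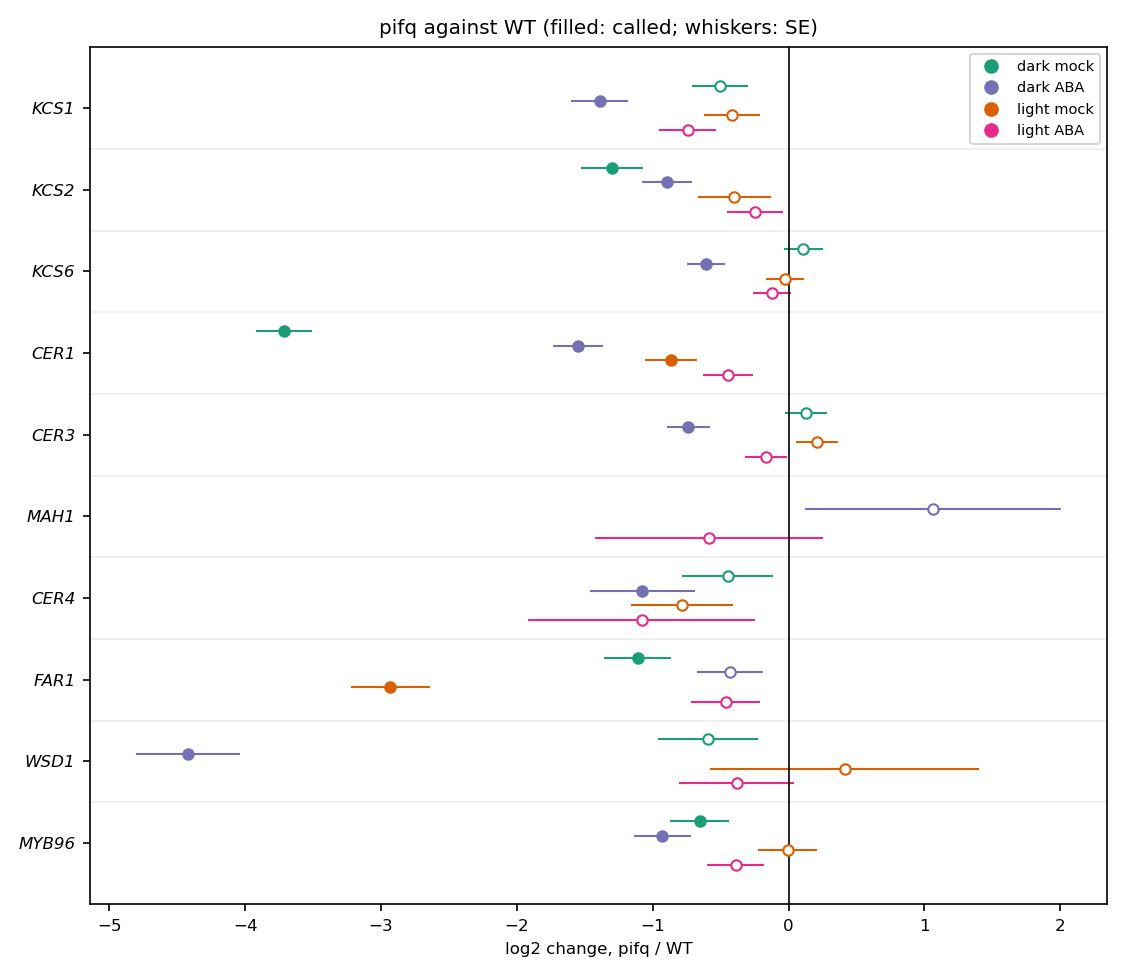
Log2 difference of each gene between pifq and WT in 4 conditions, with SE whiskers and filled points where the difference was called. CER1 lies at -3.71 in dark mock and WSD1 at -4.42 in dark ABA, while the light ABA points are all open; differences of MAH1 with 3 or fewer counts in a group are not drawn.

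Large differences were seen for CER1 in dark mock and for WSD1 in dark ABA. CER1 was 13.1-fold lower in pifq in dark mock (-3.71 ± 0.21, adjusted p = 5.22e-11), from the values given above, and 2.92-fold lower in dark ABA (-1.55 ± 0.18, adjusted p = 1.56e-06). In light mock it stood at 47.3, 60.8 and 60.3 CPM in WT and at 37.3, 28.5 and 26.6 CPM in pifq (-0.86 ± 0.19, adjusted p = 0.00631), and in light ABA at 369 ± 50.2 and 271 ± 32.9 CPM (-0.45 ± 0.18, adjusted p = 0.277, blocked fit -0.44, adjusted p = 3.43e-06). WSD1 was 21.4-fold lower in dark ABA (-4.42 ± 0.38, adjusted p = 3.06e-08). Its dark mock libraries overlapped between the genotypes (-0.59 ± 0.37, adjusted p = 0.195), though without replicate 2 of pifq dark mock the difference was called (-1.16, adjusted p = 0.024). Its light levels differed by 0.41 ± 0.99 in mock and -0.38 ± 0.43 in ABA, neither of which was called.

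The elongases were lower in pifq in dark ABA. KCS1 stood at 289, 431 and 367 CPM in WT and at 141, 128 and 146 CPM in pifq there (-1.39 ± 0.21, adjusted p = 2.95e-05). KCS2 differed by -0.90 ± 0.18 (adjusted p = 0.000551) and KCS6 by -0.61 ± 0.14 (adjusted p = 0.0016). In dark mock KCS2 was also lower (-1.30 ± 0.23), KCS6 differed by 0.11 with a 95% interval of -0.18 to 0.40, and KCS1 by -0.51 ± 0.21 (adjusted p = 0.0514). KCS1 was called there in 10 of 24 fits that left out 1 library, with DESeq2 (adjusted p = 0.0258) and with both other scalings, which gave 5 lower and 1 higher. In light ABA KCS1 differed by -0.74 ± 0.21 (adjusted p = 0.0921). It was called with DESeq2 (adjusted p = 0.0315), without replicate 3 of pifq light mock (adjusted p = 0.0483) and in the blocked fit (-0.74, adjusted p = 2.27e-08).

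CER3 and CER4 were called lower in pifq in dark ABA. CER3 differed by -0.74 ± 0.16 (adjusted p = 0.000744), as the WT libraries ran from 178 to 201 CPM and those of pifq from 108 to 123 CPM, with no overlap. CER4 differed by -1.08 ± 0.39 (adjusted p = 0.0326), with overlapping libraries, and was not called without replicate 2 or 3 of WT dark ABA or replicate 1 or 2 of pifq dark ABA (adjusted p = 0.0629 to 0.152). In the blocked fit of light ABA CER3 was lower by a small margin (-0.17, adjusted p = 0.0188), a value of -0.17 ± 0.16 and not called without the block.

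FAR1 was lower in pifq in both mock conditions. In light mock WT stood at 87.9, 40.4 and 45.4 CPM and pifq at 8.05, 6.92 and 7.79 CPM, a 7.62-fold difference (-2.93 ± 0.29, adjusted p = 4.06e-06). In dark mock WT stood at 217, 223 and 215 CPM and pifq at 78.4, 91.8 and 133 CPM (-1.11 ± 0.25, adjusted p = 0.00127). With ABA the differences of -0.43 ± 0.24 in darkness and -0.46 ± 0.25 in light were not called. The blocked fit of the compared groups called both (-0.49, adjusted p = 0.00612 in darkness and -0.44, adjusted p = 0.00752 in light). The block on all 24 libraries called neither. The endodermis marker sum stood at 379 ± 7.25 CPM in WT and 227 ± 6.71 CPM in pifq in dark mock, and at 166 ± 6.68 and 119 ± 1.95 CPM in light mock. Its part in the difference of FAR1 was not tested.

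MYB96 was lower in pifq in darkness. The difference was -0.93 ± 0.21 in dark ABA (adjusted p = 0.00146), with no overlap, and -0.65 ± 0.22 in dark mock (adjusted p = 0.0199), with overlap. The second was lost without replicate 1 or 3 of pifq dark mock or replicate 1 or 2 of WT dark mock (adjusted p = 0.0565 to 0.0978). In light mock it was -0.01, with a 95% interval of -0.46 to 0.44, and in light ABA -0.39 ± 0.21 (blocked fit -0.39, adjusted p = 0.000134). MAH1 had 193 counts in pifq dark mock and 2 in WT dark mock, a ratio of 104. This is a description only, as MAH1 passed the filter through pifq dark mock. Its other genotype differences were not called.

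Between light and darkness, FAR1 was lower in light in all 4 comparisons and KCS6 was higher in 3. In WT mock 1 of the 10 genes was higher in light and 4 lower, where 32.7% of all genes were higher and 32.2% lower. In WT ABA none was higher and 7 were lower (31.5% and 31.1% of all genes), in pifq mock 4 were higher and 4 lower (29% and 28.3%), and in pifq ABA 1 was higher and 4 were lower (25.9% and 30.2%). MAH1 is 1 of the 4 lower in pifq mock, again as a description. Scaling by library totals alone moved the median of all genes by -0.18, -0.17, -0.19 and -0.22 here. It gave 1 higher and 5 lower in WT mock, 8 lower in WT ABA, 3 higher and 4 lower in pifq mock, and 4 lower in pifq ABA, where KCS6 was then not called. The share of all calls that were higher was 37.6%, 38.2%, 34.1% and 29.0% under that scaling, against 50.4%, 50.3%, 50.6% and 46.1% with TMM.

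**Figure D4:**
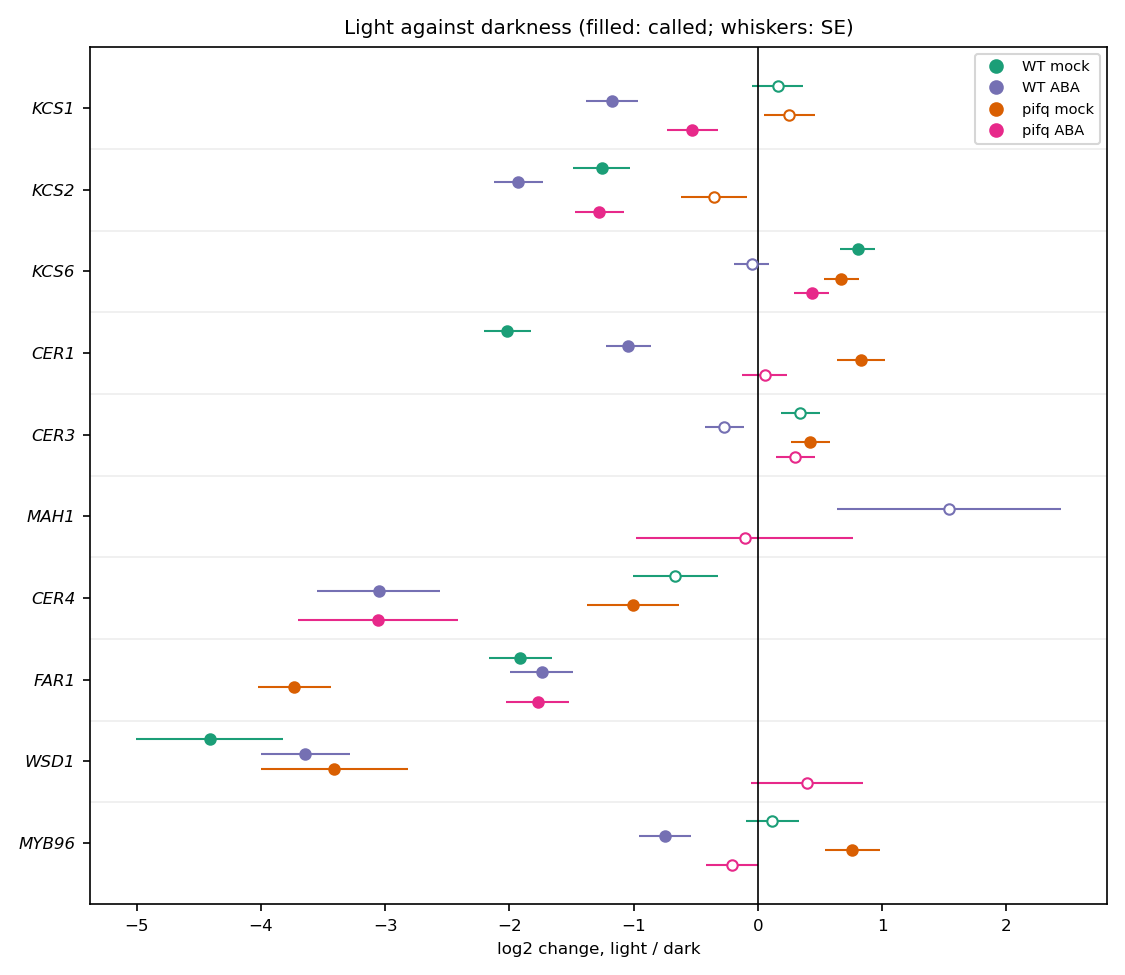
Log2 difference of each gene between light and darkness in 4 combinations of genotype and treatment, with SE whiskers and filled points where the difference was called. FAR1 lies left of 0 in all 4, CER1 lies left of 0 in WT and right of 0 or near it in pifq; differences of MAH1 with 3 or fewer counts in a group are not drawn.

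CER1 went in opposite directions in the 2 genotypes without ABA. In WT mock it was lower in light (-2.02 ± 0.19, adjusted p = 8.85e-09), and in pifq mock it was higher in light (0.83 ± 0.20, adjusted p = 0.00115), in both cases with no overlap. The genotypes differed in this by 2.85 ± 0.27 (adjusted p = 3.58e-07). With ABA it was lower in light in WT (-1.04 ± 0.18) and differed by 0.06 in pifq (95% interval -0.32 to 0.43), a difference between the genotypes of 1.10 ± 0.26 (adjusted p = 0.00502). WSD1 was lower in light in WT mock (-4.41 ± 0.59), WT ABA (-3.64 ± 0.36) and pifq mock (-3.41 ± 0.59), and not called in pifq ABA (0.40 ± 0.45). With ABA the effect of light on WSD1 differed between the genotypes by 4.04 ± 0.58 (adjusted p = 6.87e-05).

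FAR1 differed between light and darkness by -1.91 ± 0.25 in WT mock (adjusted p = 2.26e-06) and by more in pifq mock (-3.73 ± 0.29, adjusted p = 3.87e-09). With ABA it differed by -1.74 ± 0.25 in WT and -1.77 ± 0.26 in pifq. The summed endodermis markers were lower in light than in darkness in each of these 4 pairs, and their part in this was not tested. KCS2 was lower in light in WT mock (-1.26 ± 0.23), WT ABA (-1.93 ± 0.19) and pifq ABA (-1.28 ± 0.20). CER4 was lower in light with ABA in WT (-3.05 ± 0.49) and pifq (-3.06 ± 0.65). In pifq mock its difference (-1.005 ± 0.37, adjusted p = 0.0244) was lost without replicate 2 or 3 of pifq dark mock or 1 or 3 of pifq light mock (adjusted p = 0.0562 to 0.119). MAH1 had 193 counts in pifq dark mock and 0 in pifq light mock, at least 54.5-fold lower against a floor of 3 counts over the group.

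KCS6 was higher in light in WT mock (0.80 ± 0.14, adjusted p = 4e-05), pifq mock (0.67 ± 0.14) and pifq ABA (0.43 ± 0.14, adjusted p = 0.0121). The last was lost without replicate 3 of pifq light ABA (0.34, adjusted p = 0.0774) and with library totals (0.21, adjusted p = 0.168). In WT ABA it stood at 1118 ± 138 CPM in darkness and 1080 ± 23.1 CPM in light (-0.05, 95% interval -0.34 to 0.24). The summed level of the 5 epidermal markers in WT mock was 578 ± 9.53 CPM in darkness and 773 ± 33.1 CPM in light. Of these 4 were called higher and 0 lower. The sum stood lower in light in pifq mock (631 ± 39.3 against 754 ± 74.5 CPM) and pifq ABA (550 ± 53.7 against 706 ± 83.9 CPM). So it did in WT ABA (635 ± 69.6 against 749 ± 108 CPM). The part of these markers in KCS6 was not tested. CER3 was higher in light in pifq mock (0.42 ± 0.15, adjusted p = 0.0247), a call lost without replicate 1 or 3 of pifq dark mock or replicate 3 of pifq light mock (0.22 to 0.43, adjusted p = 0.052 to 0.23) and with library totals (0.21). In WT mock it differed by 0.34 ± 0.16 (adjusted p = 0.0585), and was called without replicate 2 of WT light mock (0.45, adjusted p = 0.0234) or any 1 of 5 pifq libraries. MYB96 was higher in light in pifq mock (0.76 ± 0.22) and lower in WT ABA (-0.75 ± 0.21). KCS1 was lower in light with ABA in WT (-1.17 ± 0.21) and in pifq (-0.53 ± 0.21, adjusted p = 0.0376). The pifq call was lost without replicate 1 or 3 of pifq dark ABA or replicate 2 or 3 of pifq light ABA (adjusted p = 0.0766 to 0.158).

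Tests of the difference between responses called fewer genes. For the ABA response in light against darkness, 1 of the 10 genes was called higher and 3 lower in WT (5.89% and 6.02% of all genes), and 3 higher and 2 lower in pifq (9.02% and 9.65%). For the ABA response of pifq against WT, 1 was higher and 4 lower in darkness (5.72% and 5.69%), and 1 higher and none lower in light (0.0864% and 0.13%). For the effect of light in pifq against WT, 1 was higher and 1 lower in mock (6.64% and 11.8%), and 2 higher and none lower with ABA (7.08% and 9.81%). MAH1 is 1 of the 3 higher for the ABA response of pifq between light and darkness, and 1 of the 4 lower for that between the genotypes in darkness. Both draw on pifq dark mock and are a description. Under library totals alone, 26.2% of all calls for the ABA response of pifq against WT in light were higher, against 40% with TMM. The single gene in light was FAR1. KCS2 was called in none of these 6 tests, and its ABA response in pifq exceeded that in WT by 0.40 ± 0.29 in darkness and 0.15 ± 0.34 in light. Its ABA response in light minus that in darkness was -0.92 ± 0.33 in pifq (adjusted p = 0.0575) and -0.67 ± 0.30 in WT (adjusted p = 0.167). The pifq value was called in 8 of 31 alternatives. In WT, CER1 rose more with ABA in light than in darkness (0.97 ± 0.26, adjusted p = 0.0163). KCS6 rose less (-0.85 ± 0.20, adjusted p = 0.00657).

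The other genes of the pathway and of neighbouring barrier polymers are given by list. These lists were chosen with earlier results of these data known, and the differences between backgrounds in their counts were not tested. In WT darkness, where 22.8% of all genes rose and 17.5% fell, 14 of 23 tested elongation genes rose with ABA and 1 fell, among them KCS3 (1.80 ± 0.18), the acetyl-CoA carboxylase gene ACC1 (0.76 ± 0.10) and the dehydratase gene PAS2 (0.88 ± 0.12). Of 5 export genes 4 rose, including the transporter genes ABCG11 (1.00 ± 0.12) and ABCG12 (0.96 ± 0.13) and LTPG1 (0.84 ± 0.15), a lipid transfer protein gene. Of 14 cutin genes 6 rose and 1 fell, with GPAT4 at 0.88 ± 0.11 and GPAT6 at -2.43 ± 0.29. The median changes of these lists were 0.51, 0.84 and 0.42, against 0.07 over all genes. Of 11 tested genes of wax modification 2 rose and 4 fell, with a median of -0.16, and among those that fell was the cytochrome b5 gene CB5B (-0.42 ± 0.10). Of the regulators 3 of 11 rose, a share near that of all genes, and MYB94, a close relative of MYB96, rose by 1.73 ± 0.15. Beside these rises, the summed level of the 5 epidermal markers went from 578 ± 9.53 to 749 ± 108 CPM, with 4 of the 5 called higher, and their part was not tested.

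In the other 3 backgrounds 4 or 5 of the 23 elongation genes rose, and no export or cutin gene did. In WT light, where 21% of all genes rose and 19% fell, 5 elongation genes rose and 7 fell, no export gene rose and 1 fell, and 10 of 14 cutin genes fell, among them DCR (-1.64 ± 0.15). Beside these WT light falls, the summed level of the 5 epidermal markers went from 773 ± 33.1 to 635 ± 69.6 CPM. Of the 5, 2 were called lower and 0 higher, and their part was not tested. In pifq darkness (26% and 22.7% of all genes) 4 elongation genes rose and 7 fell, and in pifq light (23.7% and 23%) 4 rose and 10 fell. Genes of wax modification numbered 0 higher and 7 lower in WT light, 3 and 5 in pifq darkness, and 0 and 6 in pifq light, and regulators 3 and 4, 2 and 5, and 3 and 4 in the same order. LACS1, which activates long acyl chains, fell in these 3 (-2.15 ± 0.12, -1.48 ± 0.12 and -2.76 ± 0.12), while CER26L rose (1.95 ± 0.15, 1.44 ± 0.15 and 2.37 ± 0.15). The ABA response in darkness was lower in pifq than in WT for 11 elongation genes and higher for 1, and lower for 4 of 5 export genes, where 5.69% of all genes were lower and 5.72% higher. The epidermal markers, at 754 ± 74.5 CPM in pifq dark mock and 706 ± 83.9 CPM with ABA, gave 4 of 5 lower in the same test, and their part was not tested.

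The suberin genes that rose with ABA numbered 1 of 15 in WT darkness, where 5 fell, and 9 in pifq darkness, where 2 fell. In WT light 2 rose and 5 fell, and in pifq light 4 rose and 3 fell. The shares of all genes are those given above. Their response was higher in dark pifq than in dark WT for 9 and lower for none, with CYP86A1, a fatty acid hydroxylase gene, at 3.38 ± 0.61, MYB93 at 2.68 ± 0.48 and the reductase genes FAR5 (2.01 ± 0.42) and FAR4 (1.74 ± 0.39). MYB41, a suberin regulator, rose in both, by 2.35 ± 0.26 in WT and 3.61 ± 0.28 in pifq. In the same test FAR1 gave 0.68 ± 0.35 and KCS2 0.40 ± 0.29, neither called. The 5 root hair markers were called higher in this test as well, from 15.6 ± 9.09 to 52.1 ± 26.0 CPM in dark pifq and from 31.3 ± 11.3 to 3.74 ± 0.713 CPM in dark WT in their sum, and their part in the suberin genes was not tested. None of the 5 endodermis markers tested was called in it.

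**Figure D5:**
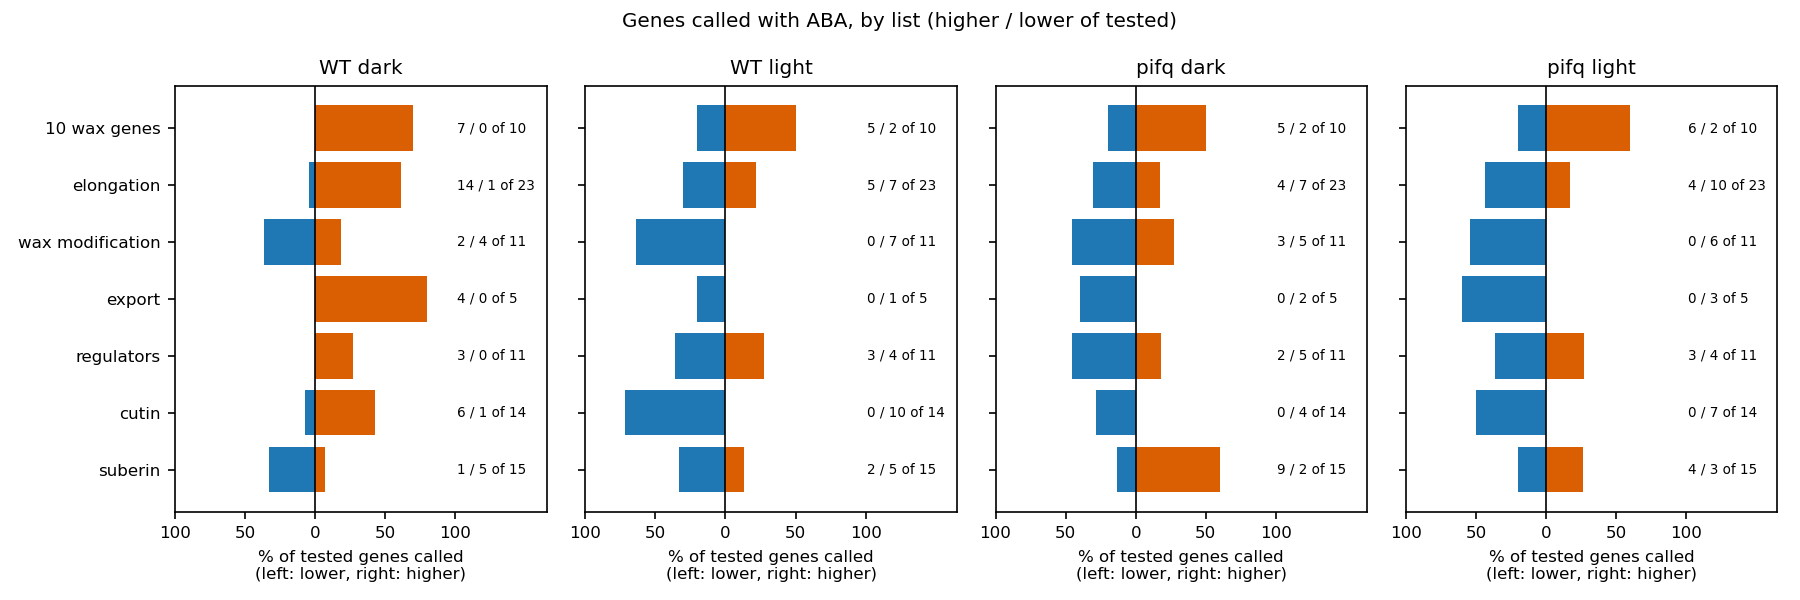
Share of tested genes called with ABA in 4 backgrounds, for the 10 wax genes and 6 lists, as bars to the right (higher) and to the left (lower) of 0, with the numbers beside them. Elongation and export genes rise in WT dark (14 of 23 and 4 of 5), and suberin genes in pifq dark (9 of 15).

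Across the 24 libraries, the genes whose log2 levels were most like those of the members were described by Pearson's r. The 7353 genes compared were those tested that had a gene symbol besides the identifier and a mean of at least 5 CPM. The libraries share groups, so r mostly reflects differences between groups. KCS6 was most like ABCG12 (r = 0.967), ABCG11 (0.949) and the cutin hydroxylase gene CYP86A2 (0.905). CER3 was most like ABCG11 (0.882), CYP86A2 (0.858) and KCS6 (0.846). KCS2 was most like HYP1 (0.979), the ABA-signalling kinase gene OST1 (0.979) and the phosphatase gene HAB2 (0.974). CER1 was most like VSP1 (0.948), WNK4 (0.945) and RD20 (0.944), and MYB96 most like RD22 (0.938), ECT8 (0.933) and FUT12 (0.917). CER4 was most like MSRB7 (0.948), AMT1;3 (0.948) and the endodermis marker CASP1 (0.946), FAR1 most like LNG2 (0.941), TLP2 (0.934) and NPC3 (0.932). WSD1 was most like CCX4 (0.913), OCT1 (0.906) and ASD1 (0.902), KCS1 most like DGK7 (0.883), GRP5 (0.867) and RTFL16 (0.867), and MAH1 most like AIR9 (0.804), DRB3 (0.770) and AGP26 (0.763). Among the members themselves the highest values were 0.891 for CER1 with KCS2, 0.850 for KCS2 with MYB96 and 0.845 for CER1 with MYB96, and the lowest was -0.598 for CER4 with KCS6.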

How the data were processed

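PolyA RNA of whole seedlings was sequenced as 100-bp paired reads from stranded libraries, per the labels' protocols. The authors deposited 1 table of raw counts per gene for the 24 libraries, and the submitters' processing notes name STAR, SAMtools, FastQC, DESeq2 and the TAIR10 build, without versions. They name no counting tool, strand setting or annotation release (not given in the sources used here). Every column was matched to a sample by its labelled name, and 0 columns were left unmapped.

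The counts were analysed with edgeR 4.0.16 in R 4.3.3. Genes were kept by filterByExpr over the 8 groups, libraries were scaled by TMM, and a quasi-likelihood model (glmQLFit, robust; glmQLFTest) with 1 coefficient per group was fitted to all 24 libraries, with 16 residual degrees of freedom. Benjamini-Hochberg adjustment covered all 20828 genes tested, in each of 18 comparisons (12 between groups, 6 between responses). The fit was also run on simulated counts with changes planted in 1 group only, unlike these data, and no result here rests on that run. The 10 genes and all other lists were chosen with earlier results of these data known. All 10 genes are named in each comparison, and of every other list at most the 4 called members of lowest p. For likeness, the 3 genes of highest Pearson r were taken (prior count 2).

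Counting intervals and floors (3 counts, 95% intervals) cover counting error only. Exon lengths and gene positions are from the RefSeq annotation of TAIR10.1, not the authors' annotation. Of windows of 50 bases along the exons of each gene, 4 of 1946 of KCS2 and 4 of 1642 of MYB96 occur elsewhere in the genome on either strand, and none of the others. Replicates of 1 group differed beyond sampling noise in each pair (chi-square per degree of freedom 4.08 to 20.0), and the median biological coefficient of variation was 0.109, with 0.123 (KCS6) to 0.419 (MAH1) for the 10 genes.

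Groups share replicate numbers, which the labels do not say mark a shared batch. Same-numbered libraries deviated together (every correlation over 0.1) between the genotypes in dark mock (0.134, 0.146 and 0.321) and in light ABA (0.393, 0.513 and 0.338), so the blocked values stand beside those results. Alternatives were RLE size factors, library totals alone, no filter on low counts, DESeq2 1.42.0, the compared groups only, the replicate block and leaving out each library.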

Additional observations from a re-analysis of the deposited data

Results flagged for a closer look

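These results are listed because a test of the difference between 2 responses was called; none was explained, and causes were not tested. All values are log2 differences between responses, from edgeR with Benjamini-Hochberg adjustment over all genes, where a positive value means a higher response in light or in pifq.

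For CER1, the effect of light differed between pifq and WT by 2.85 in mock and by 1.10 with ABA, and its ABA response differed between pifq and WT in darkness by 2.16. Its ABA response in light against darkness differed by 0.97 in WT and by -0.77 in pifq. The last was lost in 14 of 24 fits that left out 1 library (adjusted p = 0.0507 to 0.129), and it had an adjusted p of 0.0577 with RLE size factors.

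For WSD1, the effect of light with ABA differed between the genotypes by 4.04, the ABA response in darkness by -3.83, and the ABA response of pifq between light and darkness by 3.81. For FAR1, the ABA response of pifq differed between light and darkness by 1.96, the effect of light in mock between the genotypes by -1.82, and the ABA response in light between the genotypes by 2.47.

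The WT response to ABA was lower in light than in darkness for KCS1 (-1.34), KCS6 (-0.85) and CER4 (-2.39). The dark ABA response was lower in pifq than in WT for CER3 (-0.87) and KCS6 (-0.72). MYB96 responded less to ABA in light than in darkness in pifq (-0.97), a call lost without 7 of 24 libraries in turn (adjusted p = 0.0535 to 0.0786).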

How the results depend on the processing

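Of 5552 values of single genes under 31 alternatives, 5366 kept their side of the threshold, 90 lost a call and 96 gained one. No called value changed sign. Some values that were not called did, such as that of CER3 with ABA in pifq darkness (-0.17 to 0.11). Of 558 counts of genes called, 546 stayed within 1.5 times. In light ABA the difference between pifq and WT was called for 0 genes, and for 1 with DESeq2. It was called for 0 to 1 when each library was left out. The replicate block gave 0 on all 24 libraries and 5 on the compared groups. With the block on the compared groups, the effect of light between the genotypes with ABA gave 4 genes in place of 2. On the compared groups alone, the ABA response of pifq against WT in light gave 0 in place of 1. Leaving out each library gave 0 to 1 there, 3 to 6 for the ABA response of pifq against WT in darkness, 3 to 7 for the ABA response of pifq in light against darkness, and 3 to 5 for light against darkness in pifq with ABA, against 5 for each. The causes were not tested. With the replicate block the total of calls over the 18 comparisons was 90 on all libraries and 99 on the compared groups, against 88. On the compared groups, that block left the stronger ABA response of CER1 in light than in darkness in WT (1.04, adjusted p = 0.0591), the weaker one of MYB96 in pifq (-0.87, adjusted p = 0.0919), and the higher mock level in light of pifq for MYB96 (0.75, adjusted p = 0.0568) and CER3 (0.40, adjusted p = 0.174) not called. Apart from pifq against WT in dark mock and in light ABA, each comparison of 2 groups had at least 1 correlation of same-numbered libraries not over 0.1. For pifq against WT in dark ABA the correlations were 0.248, 0.0324 and 0.293, so a shared batch there is not excluded. The blocked fit of these groups alone also called FAR1 (-0.49, adjusted p = 0.00612). KCS2, called in none of the 6 tests between responses, was called in 3 of them in some fits that left out 1 library (adjusted p = 0.0259 to 0.0496). Its ABA response of pifq in light against darkness was also called with library totals, the compared groups only and both block fits (adjusted p = 0.0412 to 0.0483). At this depth, MAH1 rests on 0 to 6 counts per library outside pifq dark mock.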
